A study of Homo sapiens with 12 samples.

Results

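Nuclear receptor coactivators and corepressors are the proteins that a hormone receptor recruits to switch its target genes on or off. The members were 9 listed genes (NCOA1, NCOA2, NCOA3, NCOA4, NCOA7, NCOR1, NRIP1, MED1 and CITED2), and every probe that the probe annotation assigned to them was taken. Of these genes, 7 had a named probe, with 10 probes in all, out of 20046 named genes and 30113 named probes in the value table. NCOA3 and NCOR1 had no named probe and were not analysed here. RNA was measured on 12 single-colour bead arrays in 4 groups of 3. Per the labels, all arrays came from C4-2B/Rx2dox prostate cancer cells (source name C4-2B/181), in which doxycycline (dox) induces RUNX2, a transcription factor of bone formation. The cells received ethanol vehicle, dox alone, dihydrotestosterone (DHT, an androgen) alone, or both agents, after growth in 10% FBS and 48 h in medium holding 5% charcoal-stripped serum before treatment. The labelled doses were 10 mM for DHT and 250 µg/ml for dox, far above common use in culture, and their unit was not resolved here. The recorded treatment time was 48 h in all groups. No group carried dox without the inducible RUNX2 gene, so an action of dox itself and one of RUNX2 cannot be told apart. The labels do not say whether the line was 1 clone.

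As background, a receptor that has bound an activating hormone changes shape and exposes a groove for short leucine-rich motifs of its coactivators. The p160 coactivators (NCOA1, NCOA2 and NCOA3) bind there and bring in histone acetyltransferases, and MED1 links the receptor to the Mediator complex and RNA polymerase II. Corepressors act the other way: NCOR1 is best known on receptors without an activating hormone, and NRIP1 on receptors that hold one. In hormone-dependent tissues such as prostate and breast these proteins serve the steroid hormone receptors.

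The arrays were checked against their labels first. Probe intensities are linear and shared the same quantiles, and a background limit of 147.5 was set from probes of gene families that such cells do not use. Within a group the arrays correlated at 0.9943 to 0.9956 over the 12122 genes tested, and arrays of different groups at 0.975 to 0.9931. Of 9 prostate luminal markers with a probe, 3 were above the limit on all arrays, and KLK3, KLK2, FOLH1, STEAP2 and HOXB13 were above it on at most 1 array. Of 10 breast luminal markers 7 were above it on all arrays, with ESR1, the estrogen receptor gene, at 2157.4 to 4711.4. The labelled prostate origin therefore went against most of these prostate markers, and the groups are called here by their labels. The summed intensity of the breast markers was 40969.7 to 43178.5 with vehicle, 55458.0 to 58115.0 with dox, 33317.3 to 35564.5 with DHT and 47658.1 to 49463.6 with DHT and dox. That of the prostate markers was 1919.7 to 2019.8, 1566.8 to 1604.5, 2466.7 to 2673.8 and 1695.6 to 1784.4 in the same order. Both sums moved with the treatments, and their part in the results below was not tested. The markers of a list did not all move with its sum. ESR1 read 3825.5 to 4711.4 with vehicle and 2591.1 to 3083.5 with dox, while the breast sum was higher with dox. Among the prostate markers TMPRSS2 had the widest range, from 297.7 to 1332.4 over all arrays. RUNX2 read 206.8 to 225.8 with vehicle and 244.6 to 293.1 with dox by its brighter probe, and 270.9 to 313.0 with DHT against 258.6 to 331.1 with DHT and dox. By that probe it was called in dox against vehicle (log2 0.33, limma adjusted p = 0.016) and in DHT against vehicle (0.41, limma adjusted p = 0.0148) but not in DHT with dox against DHT (0.08, limma adjusted p = 0.578). The dimmer RUNX2 probe (ILMN_2377746) was above background on 10 arrays, and its groups overlapped. It read 160.1 to 179.2 with vehicle, 159.5 to 181.3 with dox, 145.7 to 175.2 with DHT and 144.1 to 174.8 with both. The labels do not say whether the probes read the induced copy, and the induction itself could not be checked.

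Dox moved most of the measured coregulator genes, and DHT moved none past the test. Averaged over cultures without and with DHT, NRIP1, the hormone-dependent corepressor, was 1.61-fold higher with dox, while CITED2 was 1.81-fold, NCOA7 1.31-fold, NCOA4 1.27-fold and NCOA1 1.16-fold lower. NCOA2 and MED1 did not pass. In all, 5 of 7 members were called for this average (1 higher and 4 lower), at a limma adjusted p of 0.05 over all genes, where 45.1% of all 12122 genes were called, 20.6% higher and 24.4% lower. Dox thus changed a large part of the transcriptome, and with 7 members their count is a description that was not tested against this background. The members' median absolute log2 change was 0.34, against 0.14 over all genes tested. The members had been chosen with earlier results of these data known, so this contrast too is a description and was not tested.

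**Figure D1:**
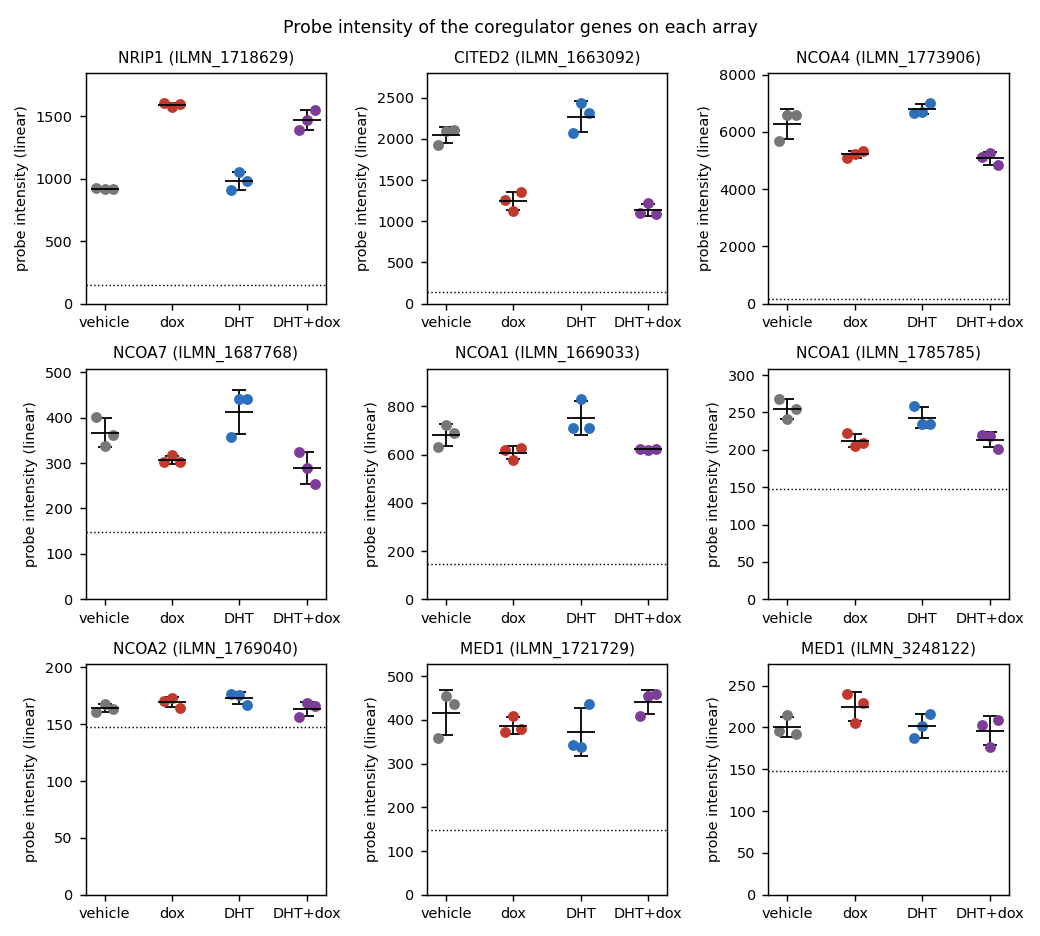
Linear probe intensity (vertical axes, from 0) of the 9 coregulator probes above background in each group, with 1 point per array, the mean as a bar and the SD as whiskers (n = 3), and the background limit of 147.5 as a dotted line. NRIP1 stands higher, and CITED2, NCOA4, NCOA7 and both NCOA1 probes stand lower, on all 6 arrays with dox than on the 6 without, whereas the points of NCOA2 and MED1 overlap.

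The p160 coactivator gene NCOA1 (SRC-1) had 3 probes. By the brightest (ILMN_1669033), the vehicle arrays read 631.0, 723.1 and 689.5, and the dox arrays 619.3, 578.2 and 627.6. The DHT arrays read 709.7, 831.5 and 712.4, and those with DHT and dox 622.9, 618.9 and 623.0. The DHT arrays included the highest value, and all 6 dox-treated arrays lay below all 6 others. The average dox change was -0.22 ± 0.06 on the log2 scale (SE, limma adjusted p = 0.00403). Taken apart, it passed in DHT with dox against DHT (-0.27, limma adjusted p = 0.0137) but not in dox against vehicle (-0.16, limma adjusted p = 0.138). Without DHT replicate 2 the former was -0.19 and lost its call (limma adjusted p = 0.096).

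The other NCOA1 probe above background (ILMN_1785785) read 268.2, 241.5 and 254.8 with vehicle and 221.8, 205.7 and 209.1 with dox. With DHT it read 258.9, 234.9 and 235.1, and with both agents 220.4, 218.6 and 201.5. Here too the dox-treated arrays lay below all others, and the average dox change was -0.22 (limma adjusted p = 0.00446, over all 16263 named probes tested, of which 42.7% were called). This probe passed in dox against vehicle (-0.26, limma adjusted p = 0.0227) and not in DHT with dox against DHT (-0.19, limma adjusted p = 0.106), so that each probe called the dox change in the setting where the other missed it. Among named probes 30.3% were called in the former comparison and 31.2% in the latter. The last probe (ILMN_2335198), assigned to the transcript NM_147233, read 116.8 to 145.6 and was above background on 0 arrays.

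NCOA2 (TIF2, also called GRIP1), the other p160 gene with a probe, lay just above background on every array. It read 160.9, 168.2 and 163.3 with vehicle, 170.8, 173.1 and 164.2 with dox, 176.3, 176.1 and 166.7 with DHT, and 156.8, 168.7 and 165.7 with both. The groups overlapped. The average dox change was -0.02 on the log2 scale, with a 95% confidence interval from -0.13 to 0.10. Background light compresses differences of so dim a probe.

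NCOA4 was described as a steroid receptor coactivator and is also the receptor that delivers ferritin to autophagy. Its probe (ILMN_1773906) read 5681.0, 6586.1 and 6586.1 with vehicle and 5100.8, 5222.8 and 5350.0 with dox. It read 6679.4, 6709.0 and 7002.1 with DHT, and 5134.5, 5260.5 and 4839.9 with DHT and dox. The dox-treated arrays lay in a narrow band below every other array. NCOA4 fell by 1.20-fold in dox against vehicle (log2 -0.26 ± 0.07 SE, limma adjusted p = 0.00372) and by 1.34-fold in DHT with dox against DHT (-0.42, limma adjusted p = 3.7e-05). Its levels ran from DHT through vehicle and dox to DHT with dox. Neither DHT and vehicle (limma adjusted p = 0.338) nor dox and DHT with dox (limma adjusted p = 0.794) differed past the test.

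NCOA7 (ERAP140) was described as an estrogen receptor-associated protein, and one of its forms is known for resistance to oxidative stress. The probe (ILMN_1687768) read 401.9, 337.9 and 360.8 with vehicle and 301.6, 317.3 and 303.2 with dox. It read 357.4, 441.3 and 441.6 with DHT, and 325.0, 289.2 and 253.3 with both agents. The lowest array without dox was still above the highest with it. In DHT with dox against DHT, NCOA7 fell by 1.43-fold (log2 -0.52 ± 0.10 SE, limma adjusted p = 0.000495). In dox against vehicle the change of -0.25 missed the threshold (limma adjusted p = 0.0666), and it passed without vehicle replicate 2 (-0.31, limma adjusted p = 0.0494) and when only these 2 groups were fitted (limma adjusted p = 0.0429). In DHT with dox against vehicle NCOA7 fell by 0.35 on the log2 scale (limma adjusted p = 0.0112). That call was lost without vehicle replicate 1 (-0.28, limma adjusted p = 0.0605) or DHT with dox replicate 3 (-0.26, limma adjusted p = 0.0756).

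MED1 (TRAP220), the Mediator subunit that touches the receptor, had 2 probes above background on all arrays. The brighter (ILMN_1721729) read 357.8, 454.0 and 436.5 with vehicle, 372.9, 409.3 and 378.0 with dox, 342.8, 337.3 and 436.4 with DHT, and 408.2, 454.0 and 458.3 with both. The groups overlapped, and replicates within vehicle and within DHT differed as much as the groups did. Its change in DHT with dox against DHT was 0.25 (95% confidence interval 0.03 to 0.47, limma adjusted p = 0.0733), and it passed without DHT replicate 3 (0.37, limma adjusted p = 0.0111). The dimmer probe (ILMN_3248122) changed by -0.04 in this comparison (limma adjusted p = 0.787). The probes also differed in sign in dox against vehicle, at -0.10 and 0.16, with neither called. The average dox change was 0.08 by the brighter probe, with an interval from -0.08 to 0.23.

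CITED2, which binds the acetyltransferases CBP and p300 and competes with hypoxia-inducible factor for them, had the largest average dox change among the members, although NRIP1 changed more in dox against vehicle. Its probe (ILMN_1663092) read 1928.7, 2095.8 and 2102.4 with vehicle and 1258.0, 1124.8 and 1353.9 with dox. It read 2065.8, 2430.9 and 2308.3 with DHT, and 1098.6, 1219.8 and 1085.2 with DHT and dox. The groups with and without dox were far apart: the highest dox-treated array stood at 1353.9 and the lowest other array at 1928.7. CITED2 fell by 1.64-fold in dox against vehicle (log2 -0.72 ± 0.08 SE, limma adjusted p = 6.49e-07). In DHT with dox against DHT it fell by 2.00-fold (log2 -0.998 ± 0.08 SE, limma adjusted p = 5.06e-09). The order of levels was DHT, vehicle, dox, then DHT with dox. The step from vehicle to dox exceeded the spread, and the others did not (limma adjusted p of 0.315 for DHT against vehicle and 0.408 for DHT with dox against dox).

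NRIP1 (RIP140), a corepressor that recruits histone deacetylases and is known as a gene induced by estrogen in breast cancer cells, went the other way. Its probe (ILMN_1718629) read 925.2, 914.2 and 917.0 with vehicle and 1604.3, 1576.0 and 1598.4 with dox. It read 911.9, 1051.4 and 981.8 with DHT, and 1388.9, 1470.2 and 1547.5 with DHT and dox. The means were 918.8 ± 5.72 (SD, n = 3), 1592.9 ± 14.9, 981.7 ± 69.8 and 1468.9 ± 79.3, so both DHT groups had the wider spread. NRIP1 rose by 1.73-fold in dox against vehicle (log2 0.79 ± 0.07 SE, limma adjusted p = 2.21e-08). In DHT with dox against DHT it rose by 1.497-fold (log2 0.58 ± 0.07 SE, limma adjusted p = 1.61e-06). The order was dox, DHT with dox, DHT and vehicle. Only the step between DHT with dox and DHT passed the test, while the outer steps were -0.12 (limma adjusted p = 0.395) and 0.09 (limma adjusted p = 0.506). NRIP1 and ESR1 moved in opposite directions, since ESR1 fell by 0.62 on the log2 scale in dox against vehicle (limma adjusted p = 1.09e-05).

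**Figure D2:**
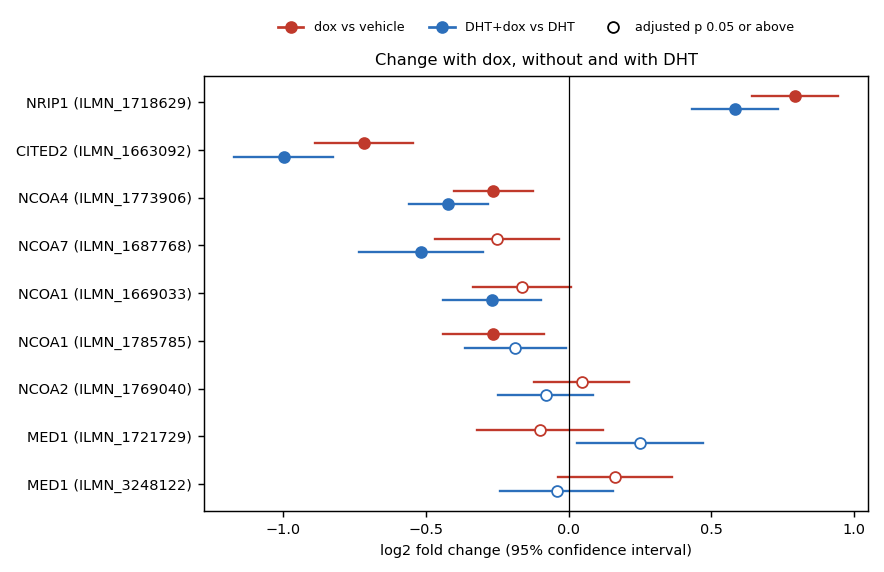
Log2 fold change (horizontal axis, with 95% confidence intervals) with dox for each coregulator probe, without DHT in red and with DHT in blue, where filled points had a limma adjusted p under 0.05 over all named probes tested. NRIP1 lies to the right at 0.79 and 0.58, CITED2 to the left at -0.72 and -0.998, and the intervals of NCOA2 hold 0 in both settings.

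By comparison, dox against vehicle called 3 of 7 members (NRIP1 higher, NCOA4 and CITED2 lower), where 32.8% of all genes were called, 16.1% higher and 16.7% lower. DHT with dox against DHT called 5 of 7 (NRIP1 higher, and NCOA1, NCOA4, NCOA7 and CITED2 lower), against 33.5% of all genes, 14.3% higher and 19.2% lower. DHT with dox against vehicle called 4 of 7, against 36.8% of all genes, and dox against DHT called 5 of 7, against 34.0%. These comparisons share groups. NRIP1 was at 0.68 and 0.70, and CITED2 at -0.85 and -0.87, in the last 2 of them. By their tested probes, the 6 dox-treated arrays and the 6 others did not overlap for 5 of 7 members, which held for 21.6% of all genes tested. Total RNA of a culture cannot tell fewer cells of a kind from less of a transcript per cell. Nothing in the labels says how separate the replicate cultures were beyond the word biological, so the p-values measure the spread between these arrays.

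DHT, the androgen, was compared with its own controls without and with dox. In DHT against vehicle limma called 0 of 7 members (0 at an unadjusted p under 0.05), where 7.60% of all genes were called. The changes ran from -0.16 for MED1 to 0.17 for NCOA7, with 6 of 7 at or above 0. In DHT with dox against dox it again called 0 of 7 (0 at an unadjusted p under 0.05), where 4.27% of all genes were called, and here 5 of 7 changes were below 0. For the average of both DHT changes 0 of 7 were called (0 at an unadjusted p under 0.05), against 13.2% of all genes. The 95% confidence intervals of that average ran from -0.11 to 0.13 for CITED2, from -0.12 to 0.09 for NRIP1, from -0.06 to 0.13 for NCOA4 and from -0.11 to 0.19 for NCOA7. For NCOA1 the interval was -0.03 to 0.21, for NCOA2 -0.10 to 0.13 and for MED1 -0.14 to 0.17. An average DHT change beyond these bounds was therefore not seen, while smaller changes could not be measured with 12 arrays. The bounds do not hold for a single setting, where MED1 was at -0.16 without dox and at 0.19 with it. The 6 arrays with DHT and the 6 without overlapped for all 7 members, whereas 1.96% of all genes did not overlap.

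**Figure D3:**
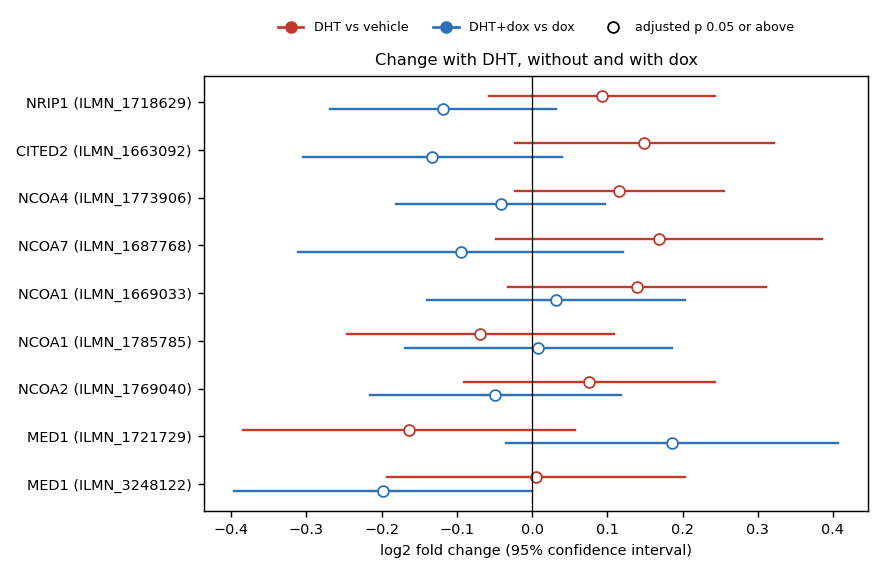
Log2 fold change (horizontal axis, with 95% confidence intervals) with DHT for each coregulator probe, without dox in red and with dox in blue. All points are open because none passed the test. The NRIP1, CITED2, NCOA4, NCOA7, NCOA2 and dimmer MED1 points lie right of 0 without dox and left of it with dox. Those of the brighter MED1 probe and the dimmer NCOA1 probe shown do the reverse, and the brighter NCOA1 probe lies right of 0 in both.

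Whether dox altered the DHT response was tested by the interaction, which takes the DHT change in vehicle cultures from that in dox cultures. It called 0 of 7 members (3 at an unadjusted p under 0.05), where 0.289% of all genes were called. Those 3 were CITED2 at -0.28 (limma adjusted p = 0.406), MED1 at 0.35 (limma adjusted p = 0.429) and NRIP1 at -0.21 (limma adjusted p = 0.49). The dimmer MED1 probe gave -0.20, opposite to the brighter. The wider fall of CITED2 and the smaller rise of NRIP1 with dox in the presence of DHT were therefore not shown to differ from those without it.

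The promoter windows of the members were searched for short motifs, in RefSeq sequence of assembly GRCh38.p14 from 250 bases before to 50 after each listed start. The search took in 8 of the 9 listed members, with 18 windows in all. NCOA2 was left out of it, so nothing is said here of its promoter. The motifs were TGTGGT (the core bound by RUNX factors), GGTCA (the core bound by the estrogen receptor) and its palindrome GGTCANNNTGACC, on both strands. Each palindrome holds the shorter core on both strands. Of all 35116 promoters, 13.1% held TGTGGT, 37.4% GGTCA and 0.057% the palindrome. Windows of 4 of the 5 members called for dox are given, for 1 start each, to let a gene that rose and genes that fell be compared, and were chosen after the search. Those of NCOA1, the other called member, held none of these motifs. Capitals mark TGTGGT or GGTCA on either strand. The NRIP1 window (chr21:15064951-15065250, minus strand) belongs to the second of 3 starts, and that of CITED2 (chr6:139374599-139374898, minus strand) to the first of 3. The NCOA4 window (chr10:46030574-46030873, minus strand) is the first of 2, and the NCOA7 window (chr6:125919005-125919304, plus strand) the third of 3.
NRIP1: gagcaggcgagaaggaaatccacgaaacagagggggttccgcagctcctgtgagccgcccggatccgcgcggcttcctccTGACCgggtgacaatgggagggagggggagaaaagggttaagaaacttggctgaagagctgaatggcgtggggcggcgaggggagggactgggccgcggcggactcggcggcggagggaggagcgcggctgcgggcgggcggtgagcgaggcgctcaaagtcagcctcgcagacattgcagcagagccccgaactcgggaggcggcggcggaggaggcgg
CITED2: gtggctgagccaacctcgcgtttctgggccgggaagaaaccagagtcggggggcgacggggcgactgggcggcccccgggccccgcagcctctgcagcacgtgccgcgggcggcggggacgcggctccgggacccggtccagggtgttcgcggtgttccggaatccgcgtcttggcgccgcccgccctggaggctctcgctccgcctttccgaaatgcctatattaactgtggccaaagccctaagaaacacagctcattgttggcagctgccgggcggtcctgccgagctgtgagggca
NCOA4: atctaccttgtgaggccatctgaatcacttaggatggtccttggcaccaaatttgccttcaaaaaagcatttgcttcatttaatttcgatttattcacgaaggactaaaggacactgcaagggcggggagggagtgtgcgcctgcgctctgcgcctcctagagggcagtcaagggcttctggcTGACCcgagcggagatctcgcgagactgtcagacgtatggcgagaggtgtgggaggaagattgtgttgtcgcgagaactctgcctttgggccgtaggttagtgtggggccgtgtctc
NCOA7: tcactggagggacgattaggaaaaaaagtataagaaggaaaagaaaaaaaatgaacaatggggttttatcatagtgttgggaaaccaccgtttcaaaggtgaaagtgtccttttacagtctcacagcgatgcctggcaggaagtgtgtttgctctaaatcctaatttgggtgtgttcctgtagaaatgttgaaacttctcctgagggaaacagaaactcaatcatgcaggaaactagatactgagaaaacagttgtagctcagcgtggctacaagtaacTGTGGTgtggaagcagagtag

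The NRIP1 window held GGTCA at -170 from the start, and the first NCOA4 window held it at -67. It was also in the second NCOA4 window, the first and second NCOA7 windows and the MED1 window. The NCOA7 window held TGTGGT at 30 bases after the start, and none of the 3 CITED2 windows held any of these motifs. TGTGGT was also in the second NCOR1 window, at -95. The palindrome was in 0 of the 18 windows. The gene that rose and a gene that fell thus both held GGTCA, and a match or its absence in so short a window says nothing of binding.

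Other coregulator and receptor genes were taken from lists of 139 genes, of which 130 had a named probe and 114 were tested. For the average dox change 29 rose, 30 fell and 55 were not called, so that 51.8% were called against 45.1% of all genes. Of all genes 20.6% rose and 24.4% fell. The list median was -0.02, against -0.01 over all genes tested. Among acetyltransferase and methyltransferase coactivators 4 of 13 rose and 4 fell. KAT2B (PCAF), the acetyltransferase that works with p160 proteins, fell by 1.14 on the log2 scale, with geometric means of 1866 with vehicle, 899.6 with dox, 2299.2 with DHT and 987.9 with both. In the same list PRMT2 changed by -0.53, while KAT2A rose by 0.42 and KDM1A by 0.38. With the mean of each gene's probes KAT2B was at -0.691 and PRMT2 at -0.3103. CREBBP and EP300, the CBP and p300 genes that CITED2 binds, were at -0.18 (limma adjusted p = 0.0142, called) and -0.12 (limma adjusted p = 0.27).

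The counts of the lists below stand beside 20.6% of all genes that rose and 24.4% that fell. Of 16 other corepressors 5 rose and 3 fell, with the Groucho corepressor TLE1 at -0.76, HDAC2 up by 0.33 and TRIM28 by 0.24. In the NCoR corepressor complex, which NCOR1 itself builds, 1 of 5 rose and 2 fell. CORO2A was at -0.46 and GPS2 at 0.31. HDAC3, its deacetylase, was at -0.14, a call that missed the threshold in 11 of 19 alternatives. Mediator subunits, the partners of MED1, had 8 of 27 rising and 3 falling, led by MED13L (0.68) and MED27 (0.41), with MED30 at 0.39 and CDK19 at -0.41. Of 10 SWI/SNF subunits 2 rose and 3 fell, all by 0.30 or less. Among 25 other nuclear receptor coactivators 6 rose and 6 fell. GREB1, an estrogen receptor cofactor, rose by 4.06 and RBM14 (CoAA) by 0.86, whereas TRIM24 (TIF1-alpha) was at -0.71 and BAG1 at -0.54. With the mean of its probes, which takes in dimmer ones, GREB1 was at 1.4966, and with normexp background correction BAG1 was at -0.8403. No GREB1 probe was above background on every array. The size of its rise is therefore uncertain, and it reached 4.7572 in another setting. In the NCOA family beyond the members, NCOA5 was not called and NCOA6 was at -0.15, a call that missed the threshold in 12 of 19 alternatives. CITED4, the 1 tested relative of CITED2, rose by 0.32 while CITED2 fell. The CITED4 rise was called in dox against vehicle (0.48) but not in DHT with dox against DHT (0.16).

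Of the 15 nuclear receptor genes tested, 2 rose with dox on average and 8 fell, where 20.6% of all genes rose and 24.4% fell. The 2 that rose were RARA, the retinoic acid receptor gene, at 1.10, and the progesterone receptor gene PGR. PGR was above background on the 6 dox-treated arrays and on 0 others, so that no fold is given. Among those that fell were ESR1 (-0.57) and the shared partner receptor gene RXRA (-0.45). For the average DHT change 8 of 114 list genes rose and 6 fell (12.3%, against 13.2% of all genes), a total that went from 14 to 9 without dox replicate 2, DHT replicate 1 or DHT replicate 2. FHL2, a LIM-domain coactivator, rose by 0.64 and the adipogenic receptor gene PPARG by 0.56. ESR1 was at -0.27 and CITED4 at -0.27. No member was called for DHT.

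**Figure D4:**
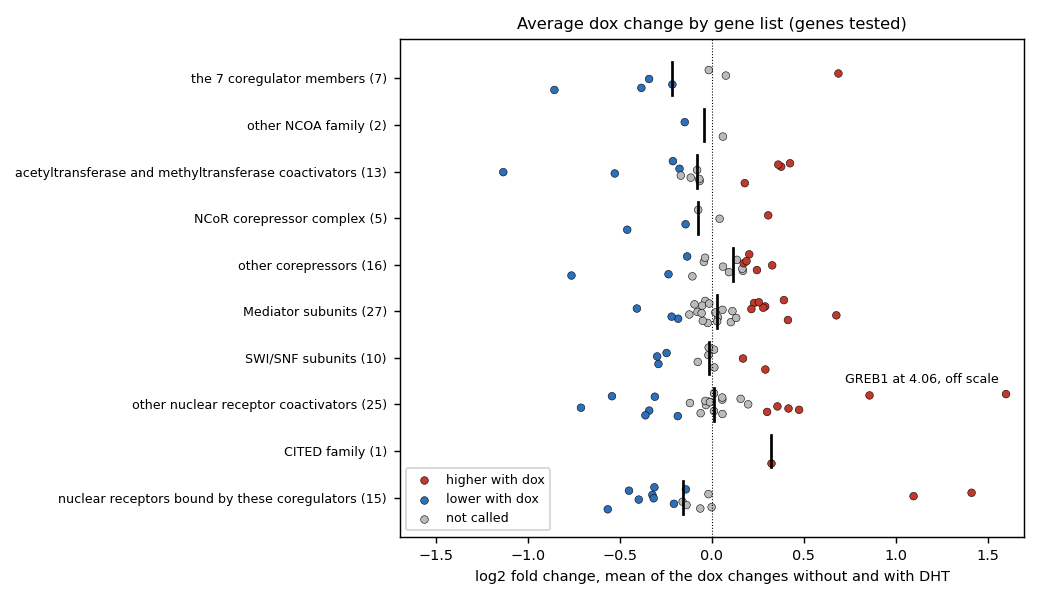
Log2 fold change with dox, averaged over the settings without and with DHT (horizontal axis), for each tested gene of the coregulator and receptor lists, with the number of genes in brackets, called genes in red or blue, and the list median as a black bar. The members' median lies at -0.22, and most lists hold called genes on both sides of 0.

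The genes whose intensity ran most like that of each called member were ranked by Pearson's r over the 12 arrays among 12121 others, as a description in which the dox difference and the arrays themselves are shared. For CITED2 they were TACC1 (r = 0.9915) and YPEL3 (r = 0.9884), with dox changes of -1.10 and -1.37 on average. For NRIP1 they were FAM72B (r = 0.9881), whose probe may also read its near-identical relatives, and UBE2T (r = 0.9875), a ubiquitin-conjugating enzyme of the Fanconi pathway, at 0.90 and 0.54. NCOA4 ran closest to the ribonuclease gene ANG (r = 0.9766) and to LSS (r = 0.9739), an enzyme of cholesterol synthesis. NCOA7 ran closest to CYRIA (r = 0.9542) and the kinase gene DYRK2 (r = 0.9488). The likeness was lowest for NCOA1, with BCAM at 0.9476 and ERP27 at 0.9316.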

How the data were processed

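The authors deposited linear intensities per probe, and the submitters' processing notes name GenomeStudio. The version, normalization and background step were not given in the sources used here. All 12 columns shared their quantiles (largest difference 0.8), with 47230 probes and 0 missing values, and were used without further normalization (floor of 20, then log2). A platform table named 30113 probes, with symbols updated through the RefSeq gene table of GRCh38.p14, 17109 were unnamed and 8 had several genes. The background limit was the 95th percentile of 640 probes for olfactory receptor, keratin-associated, taste receptor and defensin genes. Genes with a probe above it in at least 1 group were tested by their brightest probe, in 1 model of 4 group means with limma 3.58.1 (R 4.3.3, trended prior). P-values are two-sided and Benjamini-Hochberg adjusted over 12122 genes, also where the brightest probe of a gene is named. Only those of the dimmer tested NCOA1 and MED1 probes were adjusted over 16263 probes. The filled points in the plot of dox changes for each coregulator probe also rest on the 16263 probes. Adjusted p-values of the brighter and dimmer probe of a gene thus come from different test sets. The model was tested on simulated data. A further promoter motif that was searched is not reported here. Members and lists were chosen with earlier results of these data known. All members are named. From each list up to 4 called genes per comparison are named by size, and CREBBP, EP300 and NCOA5 by choice. Alternatives covered background, loess, filters, probes, prior, groups, replicate block and leaving out arrays.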

Additional observations from a re-analysis of the deposited data

How the results depend on the processing

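The dox calls of NRIP1, CITED2 and NCOA4 kept their direction and side of the threshold under every alternative run. Over all genes, the interaction called 22 genes in place of 35 with normexp background correction, and 9 to 52 when an array was left out. Leaving out an array gave 549 to 925 genes in place of 921 for DHT against vehicle, 253 to 538 in place of 518 for DHT with dox against dox, and 9 to 15 in place of 14 list genes for the average DHT change. Deviations of same-numbered arrays correlated at -0.1205 to 0.2079 and others at -0.1893 to 0.1617. The ranges overlapped, and with 3 arrays per group this check cannot exclude a pairing by replicate number. A fit with the replicate block called 3862 genes for dox against vehicle, 3989 for DHT with dox against DHT and 50 for the interaction, and it called the same number of members in each comparison. With the mean of probes NCOA1 passed in dox against vehicle (-0.21, limma adjusted p = 0.0154) and in DHT with dox against vehicle (-0.19, limma adjusted p = 0.0241). NCOA1 missed the threshold in dox against DHT without DHT replicate 2 (-0.23, limma adjusted p = 0.0509). Changes of uncalled members near 0 turned sign. With the mean of probes MED1 turned to 0.0316 in dox against vehicle, -0.006 in DHT with dox against dox and -0.0425 in the average DHT change, and with cyclic loess NCOA2 turned to 6e-04 in DHT with dox against vehicle. Leaving out an array gave ranges of -0.0043 to 0.0549 for NCOA1 in DHT with dox against dox, -0.0259 to 0.0269 for NCOA2 and -0.0183 to 0.1535 for MED1 in DHT with dox against vehicle, and -0.0014 to 0.1844 for MED1 in dox against DHT. For the average DHT change they were -0.007 to 0.0878 for NCOA7, -0.0379 to 0.0134 for NRIP1, -0.0488 to 0.0445 for MED1 and -0.0274 to 0.0413 for CITED2. The causes were not tested. The number of arrays limits precision, and probes near background, as for NCOA2, understate changes.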
